A study of Homo sapiens with 12 samples.

Results

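The 9 genes described here are 2 RAS genes, NRAS and HRAS, and 7 genes that ERK signalling induces or maintains: DUSP4, DUSP6, SPRY2, SPRY4, ETV4, ETV5 and PHLDA1. They were taken by gene symbol, and each matched 1 row among the 63677 gene rows of the count table. RNA was sequenced from PANC-1 and MIA PaCa-2, established human pancreatic carcinoma lines grown as single cultures of tumour cells. In each line, cells received either a mixture of 2 siRNAs against RBM3, which encodes a cold-inducible RNA-binding protein, or a negative control siRNA. All 4 groups had 72 h of culture before transfection, a lipid transfection reagent, 25 nM siRNA for 4.5 h in medium without serum, and an overnight recovery. Each group had 3 libraries, numbered 1, 2 and 3 for PANC-1 RBM3 siRNA, 1, 2 and 4 for PANC-1 control siRNA, 1, 2 and 5 for MIA PaCa-2 RBM3 siRNA, and 1, 2 and 4 for MIA PaCa-2 control siRNA. The study compared the transcriptomes of the lines with and without RBM3 knockdown. The labels name both total and cytoplasmic RNA, and they leave unsaid whether the replicates of a group were cultured separately. The p-values therefore cover the spread among these libraries alone, part or all of which may be technical.

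RAS proteins are small GTPases that switch between a GDP-bound and a GTP-bound state, and in the GTP-bound state they start the RAF, MEK and ERK kinase cascade. ERK in turn raises transcription of genes whose products restrain the same cascade: dual-specificity phosphatases remove the activating phosphates from MAP kinases, and Sprouty proteins act nearer to the receptor and RAS. ERK also raises the ETS factors ETV4 and ETV5, and this set of transcripts is often read as a measure of pathway output in carcinoma, including that of the pancreas.

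The libraries held 14217185 to 39652502 counts. Levels are given in CPM, a count as a share of its library, with library sizes scaled by the trimmed mean of M-values (TMM), and 3 counts equalled 0.0713 to 0.208 CPM. RBM3 itself stood at 96.4, 194 and 83.0 CPM in PANC-1 RBM3 siRNA libraries, against 567, 425 and 436 CPM in PANC-1 control libraries. In MIA PaCa-2 it stood at 44.4, 37.4 and 61.9 CPM under RBM3 siRNA, against 249.6, 276 and 206 CPM under control siRNA. The siRNA groups thus held 26.2% of the control mean in PANC-1 and 19.6% in MIA PaCa-2, with no overlap between groups. An exact permutation test (two-sided) gave p = 0.1 in each line, the smallest that 3 against 3 allows. The edgeR test gave RBM3 a log2 fold change of -1.93 (SE 0.30, adjusted p = 0.516) in PANC-1 and of -2.35 (SE 0.31, adjusted p = 0.0426) in MIA PaCa-2. The MIA PaCa-2 call was lost in 13 of 20 other settings, where the adjusted p reached 0.548. The library labelled PANC-1 RBM3 siRNA replicate 3 stood apart. It held COL1A2 at 440.3 CPM and ALDH1A1 at 681 CPM, against means of 0.672 and 0.866 CPM in the other 5 PANC-1 libraries and of 1398 and 1311 CPM in MIA PaCa-2. It also held GJB5 at 14.1 CPM, against 0 CPM in the other 5 PANC-1 libraries and a mean of 12.5 CPM in MIA PaCa-2, so that the 3 genes stood at 31.5%, 51.9% and 113% of the MIA PaCa-2 mean. Whether it held RNA of both lines was not tested. The part of this library in the results below was not tested, and values of the 8 tested genes without it are given beside each comparison that uses it. Without it, RBM3 had a log2 fold change of -1.72 in PANC-1. The epithelial keratin genes KRT8, KRT18 and KRT19 were at 290.6 CPM or more in every library, whereas EPCAM had a median of 26.4 CPM in PANC-1 and 0.0464 CPM in MIA PaCa-2, and the leukocyte marker PTPRC never exceeded 0.171 CPM. CD68, a macrophage marker, stood at 1.32 to 2.53 CPM in PANC-1 and at 0.117 to 0.977 CPM in MIA PaCa-2.

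Promoter windows of 300 bases ran from 250 bases before to 50 bases after the annotated start. Windows from RefSeq (GRCh38.p14) were used here for 6 of the 9 genes, and the other genes were not searched. They are shown for DUSP6, SPRY2 and SPRY4, the feedback inhibitors that differed most between the lines or between libraries. Capitals mark the ETS core CGGAA or its reverse complement, the core that ETS factors such as ETV4 and ETV5 recognise, and all 3 windows are read 5′ to 3′ on the minus strand of the chromosome.
DUSP6, chr12:89352452-89352751: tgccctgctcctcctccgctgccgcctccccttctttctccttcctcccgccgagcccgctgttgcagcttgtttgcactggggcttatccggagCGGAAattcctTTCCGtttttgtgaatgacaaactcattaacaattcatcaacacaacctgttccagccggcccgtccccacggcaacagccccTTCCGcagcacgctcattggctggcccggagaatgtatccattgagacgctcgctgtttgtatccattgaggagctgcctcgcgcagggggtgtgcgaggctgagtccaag
SPRY2, first of 3 windows, chr13:80341077-80341376: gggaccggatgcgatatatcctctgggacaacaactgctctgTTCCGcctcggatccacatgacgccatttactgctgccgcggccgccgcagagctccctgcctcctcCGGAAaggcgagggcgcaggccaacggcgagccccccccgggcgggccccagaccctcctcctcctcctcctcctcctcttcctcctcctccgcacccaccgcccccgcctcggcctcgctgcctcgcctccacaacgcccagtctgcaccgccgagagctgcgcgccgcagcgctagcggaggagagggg
SPRY4, chr5:142324198-142324497: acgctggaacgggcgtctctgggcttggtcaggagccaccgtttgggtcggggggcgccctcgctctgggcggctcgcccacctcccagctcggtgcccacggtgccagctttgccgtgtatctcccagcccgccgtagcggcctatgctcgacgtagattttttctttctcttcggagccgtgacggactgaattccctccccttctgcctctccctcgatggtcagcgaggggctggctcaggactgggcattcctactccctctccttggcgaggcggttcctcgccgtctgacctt
DUSP6 held 3 ETS cores, the first SPRY2 window 2, and the SPRY4 window 0. NRAS had 2, PHLDA1 2 and HRAS 1, and the 2 further SPRY2 windows had none. Of 35116 promoter windows of the same length, 34.9% held at least 1 such core on either strand. The AP-1 motif TGANTCA and the CRE motif TGACGTCA were in none of the windows of these 6 genes, against 7.71% and 1.85% of the 35116 windows. A match is a string of letters and is not evidence of binding.

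The RAS genes were measured in every library. NRAS, on chromosome 1, stood at 166, 188 and 158 CPM in PANC-1 under RBM3 siRNA, against 160, 124 and 113 CPM under control siRNA. In MIA PaCa-2, NRAS stood at 165, 154 and 132 CPM under RBM3 siRNA, against 108, 96.9 and 111 CPM under control siRNA. The siRNA and control libraries overlapped in PANC-1 by 1 library, PANC-1 control replicate 1, and did not overlap in MIA PaCa-2. HRAS, on chromosome 11, stood at 91.4, 80.7 and 66.7 CPM in PANC-1 under RBM3 siRNA, against 97.8, 109 and 106 CPM under control siRNA. In MIA PaCa-2, HRAS stood at 33.4, 44.3 and 61.9 CPM under RBM3 siRNA, against 34.3, 61.8 and 41.6 CPM under control siRNA. Every PANC-1 library lay above every MIA PaCa-2 library for HRAS, and in PANC-1 all siRNA libraries lay below all controls. Per kilobase of exon, the ratio of the HRAS level to the NRAS level was 1.32, 1.03 and 1.01 in PANC-1 RBM3 siRNA libraries, against 1.47, 2.10 and 2.25 in PANC-1 control libraries. In MIA PaCa-2 the same ratio was 0.484, 0.691 and 1.13 under RBM3 siRNA, against 0.762, 1.53 and 0.899 under control siRNA. HRAS was thus the higher RAS transcript of the pair, per length, in all 6 PANC-1 libraries, and the order varied in MIA PaCa-2.

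DUSP6, on chromosome 12, encodes the cytoplasmic phosphatase with a strong preference for ERK, and it showed the widest contrast between the lines. It stood at 67.0, 131 and 157 CPM in PANC-1 under RBM3 siRNA, against 127, 168 and 89.0 CPM under control siRNA. MIA PaCa-2 libraries held it at 0.488, 1.43 and 1.75 CPM under RBM3 siRNA, against 5.18, 0.850 and 0.819 CPM under control siRNA. MIA PaCa-2 control replicate 1 was the highest of that line, with 218 DUSP6 counts, against 13 to 48 counts in the other 5 libraries. The same library held the endothelial gene CDH5 at 7.56 CPM, and its summed endothelial markers reached 8.04 CPM with PECAM1 at 0. Whether this has a part in its DUSP6 level was not tested. DUSP4, on chromosome 8, encodes a nuclear MAP kinase phosphatase, and it was near the floor in both lines. Its counts were 0, 14 and 5 in PANC-1 RBM3 siRNA libraries, against 1, 2 and 4 in PANC-1 control libraries, and 2, 1 and 7 in MIA PaCa-2 RBM3 siRNA libraries, against 11, 4 and 6 in MIA PaCa-2 control libraries. The highest DUSP4 level was 0.434 CPM, the count of 0 in PANC-1 RBM3 siRNA replicate 1 allows up to 0.0909 CPM, and no difference was detectable at this depth. DUSP4 did not pass the filter on low counts, so 8 of the 9 genes were tested.

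The Sprouty genes encode membrane-associated inhibitors of receptor-driven RAS and ERK signalling, and both had the higher median in MIA PaCa-2. SPRY2, on chromosome 13, stood at 47.1, 135 and 158 CPM in PANC-1 under RBM3 siRNA, against 133, 60.4 and 51.8 CPM under control siRNA. MIA PaCa-2 libraries held SPRY2 at 234, 216 and 286 CPM under RBM3 siRNA, against 240.4, 291 and 262 CPM under control siRNA. All MIA PaCa-2 libraries lay above all PANC-1 libraries for SPRY2. SPRY4, on chromosome 5, stood at 115, 367 and 278 CPM in PANC-1 under RBM3 siRNA, against 286, 107 and 84.5 CPM under control siRNA. In MIA PaCa-2 it stood at 471, 404 and 402 CPM under RBM3 siRNA, against 327, 270.4 and 361 CPM under control siRNA. In MIA PaCa-2 the siRNA libraries lay above the controls for SPRY4, while the PANC-1 groups overlapped and PANC-1 libraries reached into the MIA PaCa-2 range.

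ETV4, on chromosome 17, and ETV5, on chromosome 3, encode ETS transcription factors of the PEA3 group. ETV4 stood at 20.7, 20.0 and 24.7 CPM in PANC-1 under RBM3 siRNA, against 20.7, 13.8 and 24.7 CPM under control siRNA. In MIA PaCa-2 ETV4 stood at 44.1, 53.3 and 44.9 CPM under RBM3 siRNA, against 45.2, 66.2 and 67.6 CPM under control siRNA. The lines did not overlap, and within each line the siRNA and control libraries did. ETV5 stood at 141, 99.7 and 128 CPM in PANC-1 under RBM3 siRNA, against 88.0, 80.9 and 115 CPM under control siRNA. In MIA PaCa-2 ETV5 stood at 187, 171 and 137 CPM under RBM3 siRNA, against 153, 142 and 148 CPM under control siRNA. The siRNA and control libraries overlapped in both lines. PHLDA1, on chromosome 12, encodes a protein with a pleckstrin homology-like domain, and it had the narrowest range of the tested genes in both lines. It stood at 774, 830.5 and 791 CPM in PANC-1 under RBM3 siRNA, against 884, 790.2 and 780.2 CPM under control siRNA. MIA PaCa-2 held PHLDA1 at 549, 620.2 and 547 CPM under RBM3 siRNA, against 611, 573 and 690 CPM under control siRNA. Its highest library was 1.14 times its lowest in PANC-1 and 1.26 times in MIA PaCa-2. Exons of ETV4 share 68 bp with DHX8 on the opposite strand, which held 26717 counts over the 12 libraries, against 11073 for ETV4. Exons of ETV5 share 164 bp with DGKG on the same strand, which held 35 counts, against 41762 for ETV5. DUSP6 shares 1875 bp with an antisense gene that has no row in the count table. PHLDA1 shares 553 and 779 bp with 2 antisense genes that held 1058 and 397 counts, against 217271 for PHLDA1. The strand setting is not given, so reads in shared stretches cannot be told apart.

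**Figure D1:**
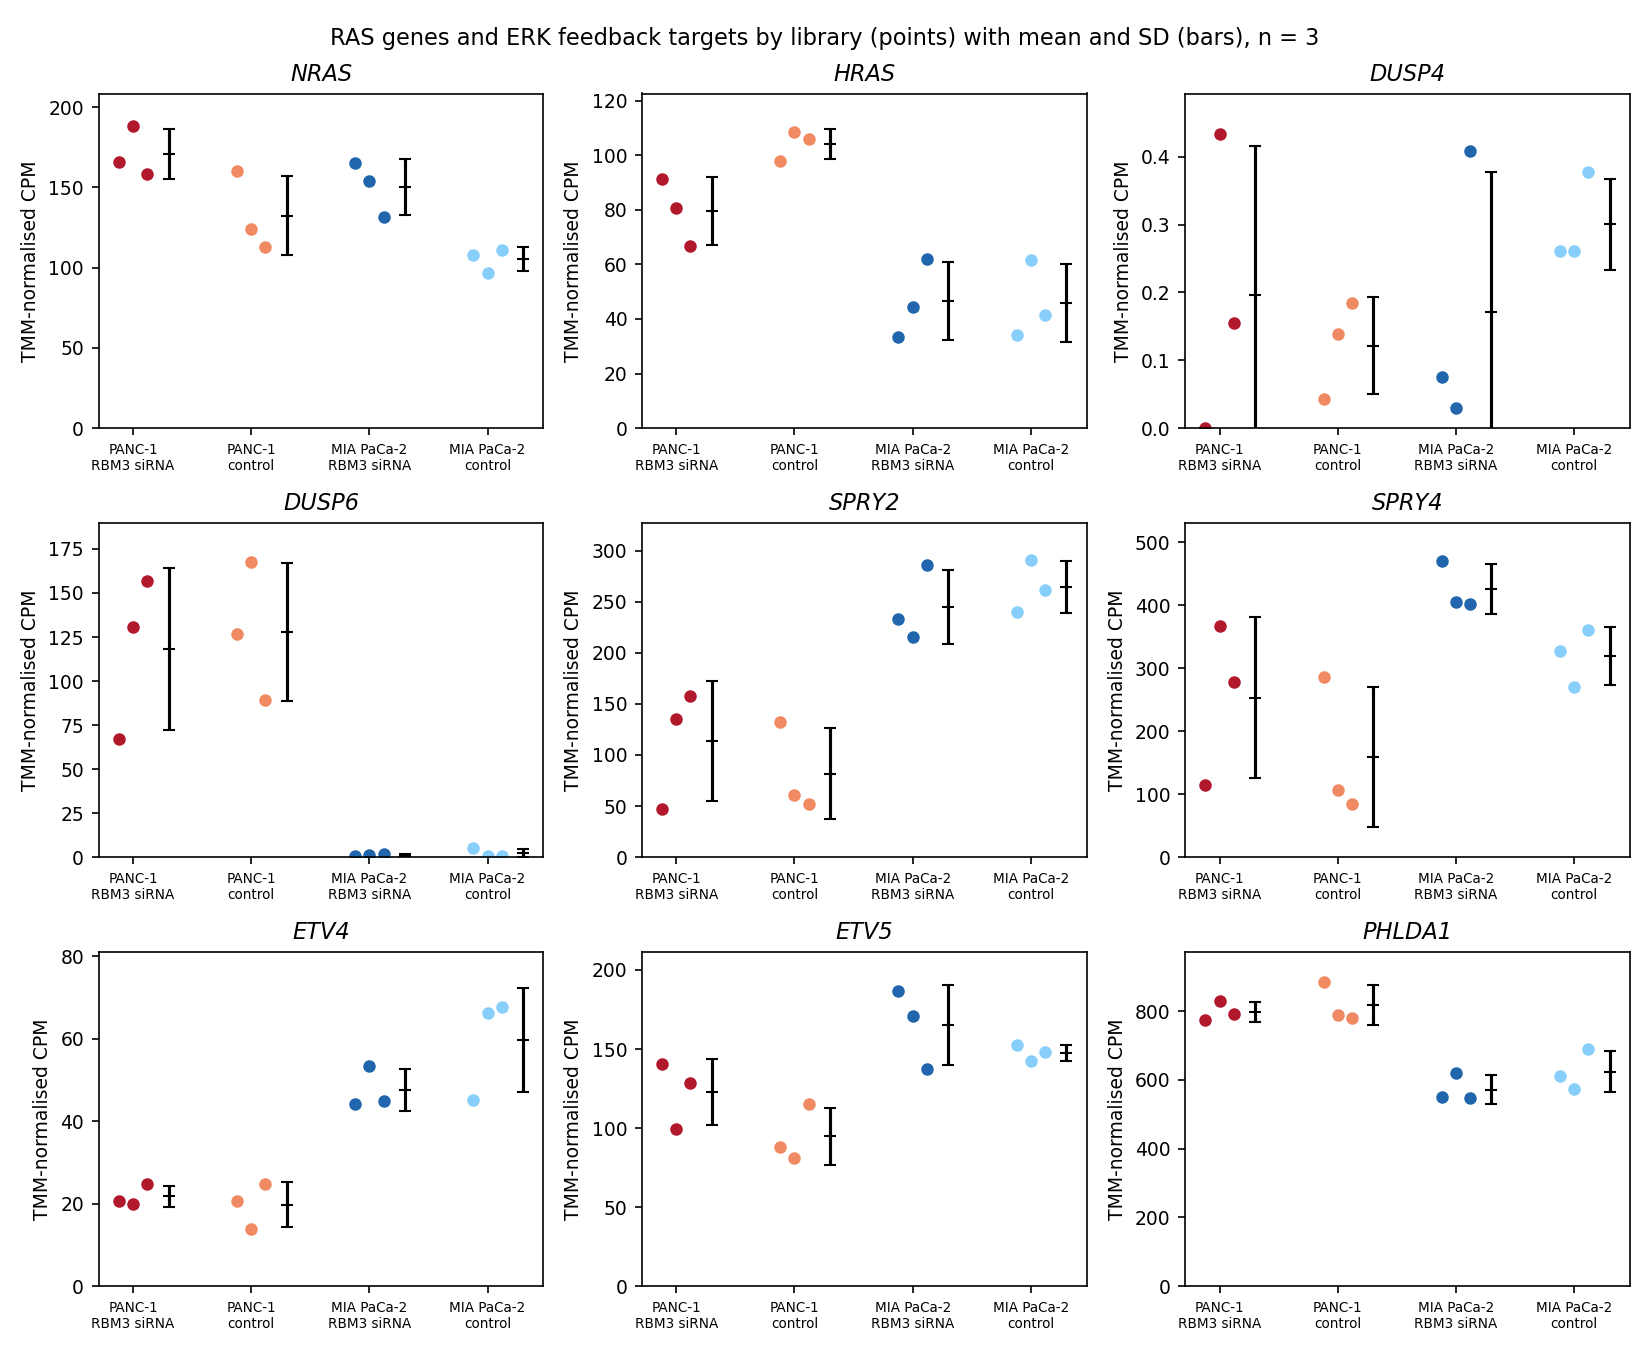
TMM-normalised CPM of the 9 genes in each of the 12 libraries (points, in replicate order), with the mean and SD of each group of 3 (bars, cut at 0). DUSP6 lay at 67.0 to 168 CPM in PANC-1 and at 5.18 CPM or less in MIA PaCa-2, and DUSP4 stayed at 0.434 CPM or less in every library.

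Ordered by level per kilobase of exon, as the median of the 6 libraries of a line, PANC-1 ran from PHLDA1 (98.0 CPM per kb) through HRAS (51.0), NRAS (35.8), SPRY2 (31.8), SPRY4 (29.9), DUSP6 (27.8), ETV5 (18.5) and ETV4 (5.73) to DUSP4 (0.0202). In MIA PaCa-2 the order was SPRY2 (82.7 CPM per kb), PHLDA1 (73.3), SPRY4 (58.1), NRAS (27.3), ETV5 (25.9), HRAS (23.2), ETV4 (13.7), DUSP6 (0.246) and DUSP4 (0.0360). PHLDA1 at the top and ETV4 and DUSP4 at the bottom stood clear of their neighbours in PANC-1, while from HRAS down to ETV5 the range of each gene overlapped that of the next. In MIA PaCa-2 the ranges of SPRY2 and PHLDA1 overlapped, as did those of PHLDA1 and SPRY4, and those of each next pair from NRAS down to ETV4. DUSP6, with a highest value of 1.12 CPM per kb, stood apart from ETV4 above it and from DUSP4 below it, which reached 0.0563 CPM per kb. DUSP6 thus sat among the Sprouty genes in PANC-1 and between ETV4 and DUSP4 in MIA PaCa-2.

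**Figure D2:**
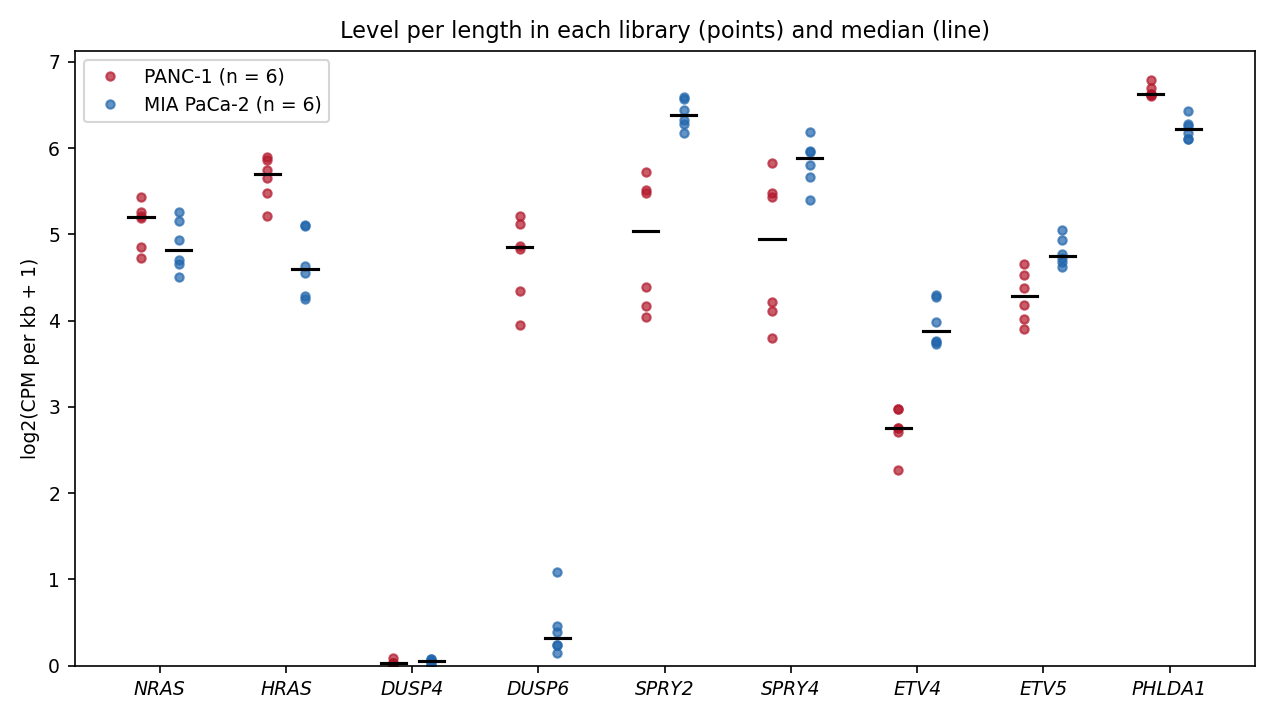
Level of each of the 9 genes in each library (points), by line, as log2(CPM per kilobase of exon + 1), with the median of 6 libraries (line). DUSP6 had a median of 27.8 CPM per kb in PANC-1 and of 0.246 CPM per kb in MIA PaCa-2, and SPRY2, SPRY4, ETV4 and ETV5 had the higher medians in MIA PaCa-2.

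Between the lines, the feedback genes differed in opposite directions. Under control siRNA, PANC-1 had more DUSP6, HRAS and PHLDA1 RNA than MIA PaCa-2, and less SPRY2, ETV4 and ETV5 RNA. Thus 6 of 8 tested genes passed edgeR's quasi-likelihood test at an adjusted p under 0.05, 3 in each direction, where 50.8% of all 17862 tested genes passed (26.0% higher and 24.8% lower). The groups did not overlap for 7 of the 8, against 61.5% of all genes. A passing share of this size is common between these lines and says little that is particular to the 9 genes. Their median log2 fold change was -0.16, against 0.0014 over all genes, and their median absolute value was 1.09, against 0.76. DUSP6 averaged 128 ± 39.3 CPM in PANC-1 control libraries and 2.28 ± 2.51 CPM in MIA PaCa-2 control libraries (SD, n = 3 each), a log2 fold change of 5.67 (SE 0.69, edgeR adjusted p = 4.50e-05), or 50.8-fold. Without MIA PaCa-2 control replicate 1 the log2 fold change was 7.28, and over all other settings the adjusted p ran from 7.18e-20 to 0.000382. HRAS averaged 104 ± 5.59 CPM in PANC-1 and 45.9 ± 14.3 CPM in MIA PaCa-2, a log2 fold change of 1.18 (SE 0.25, edgeR adjusted p = 0.00207). SPRY2 averaged 81.6 ± 44.3 CPM in PANC-1 and 264 ± 25.2 CPM in MIA PaCa-2, a log2 fold change of -1.69 (SE 0.41, edgeR adjusted p = 0.00460). ETV4 averaged 19.7 ± 5.52 CPM in PANC-1 and 59.7 ± 12.5 CPM in MIA PaCa-2, a log2 fold change of -1.59 (SE 0.23, edgeR adjusted p = 0.000188). These 4 calls held in all 19 other settings.

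The other 4 tested genes differed less between the control groups. ETV5 had a log2 fold change of -0.64 (SE 0.18, edgeR adjusted p = 0.0111), and its call was lost without PANC-1 control replicate 2 (adjusted p = 0.0519, the highest of a range that starts at 0.00741). PHLDA1 had a log2 fold change of 0.39 (SE 0.13, edgeR adjusted p = 0.0217). Its call was lost without MIA PaCa-2 control replicate 2 (adjusted p = 0.0647), without PANC-1 control replicate 1 (0.0778) and with no filter on low counts (0.131), in a range that starts at 0.00553. SPRY4 had a log2 fold change of -1.003 (SE 0.44) that did not pass (edgeR adjusted p = 0.0741). It passed without PANC-1 control replicate 1, the highest PANC-1 control library for SPRY4, with a log2 fold change of -1.73 (adjusted p = 0.00442), and without PANC-1 RBM3 siRNA replicate 1 (adjusted p = 0.0407), and it also passed limma-voom (0.0362) and the fit with no filter on low counts (0.00526), in a range up to 0.229. NRAS did not pass, with a log2 fold change of 0.33 (SE 0.16, edgeR adjusted p = 0.107).

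Under RBM3 siRNA, DUSP6, HRAS and PHLDA1 were again higher in PANC-1, and SPRY2 and ETV4 lower. That made 5 of 8 tested genes, against 43.6% of all genes (24.2% higher and 19.3% lower), and 6 of the 8 did not overlap, against 54.4%. DESeq2 called 5 of the 8, against 36.4% of all genes, and under control siRNA 6 of the 8, against 42.0%. The log2 fold changes were 6.62 for DUSP6 (SE 0.74, edgeR adjusted p = 2.25e-05) and 0.78 for HRAS (SE 0.25, adjusted p = 0.0248). They were 0.48 for PHLDA1 (SE 0.13, edgeR adjusted p = 0.00973), -1.11 for SPRY2 (SE 0.41, adjusted p = 0.0424) and -1.12 for ETV4 (SE 0.23, adjusted p = 0.00243). SPRY4 had -0.75 (SE 0.44, edgeR adjusted p = 0.180), ETV5 -0.43 (SE 0.18, adjusted p = 0.0750) and NRAS 0.19 (SE 0.16, adjusted p = 0.366), and none of these 3 passed. Without PANC-1 RBM3 siRNA replicate 3, the library that holds COL1A2, the same 5 of 8 genes passed, where 9243 of all 18422 tested genes did. The log2 fold changes of the 5 were 6.37 for DUSP6, 0.89 for HRAS, 0.48 for PHLDA1, -1.42 for SPRY2 and -1.23 for ETV4. SPRY4 then had -0.82, ETV5 -0.47 and NRAS 0.23, and these 3 again did not pass. The HRAS call was lost without PANC-1 RBM3 siRNA replicate 1 (edgeR adjusted p = 0.0709), MIA PaCa-2 RBM3 siRNA replicate 1 (0.0773) or replicate 2 (0.0771), in a range that starts at 0.00601. The SPRY2 call was lost without any 1 of 8 libraries, namely PANC-1 RBM3 siRNA replicates 1 and 2 and each of the 6 MIA PaCa-2 libraries, with edgeR adjusted p from 0.0589 to 0.118. ETV5 passed without MIA PaCa-2 RBM3 siRNA replicate 5 (edgeR adjusted p = 0.0472), in a range up to 0.253.

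**Figure D3:**
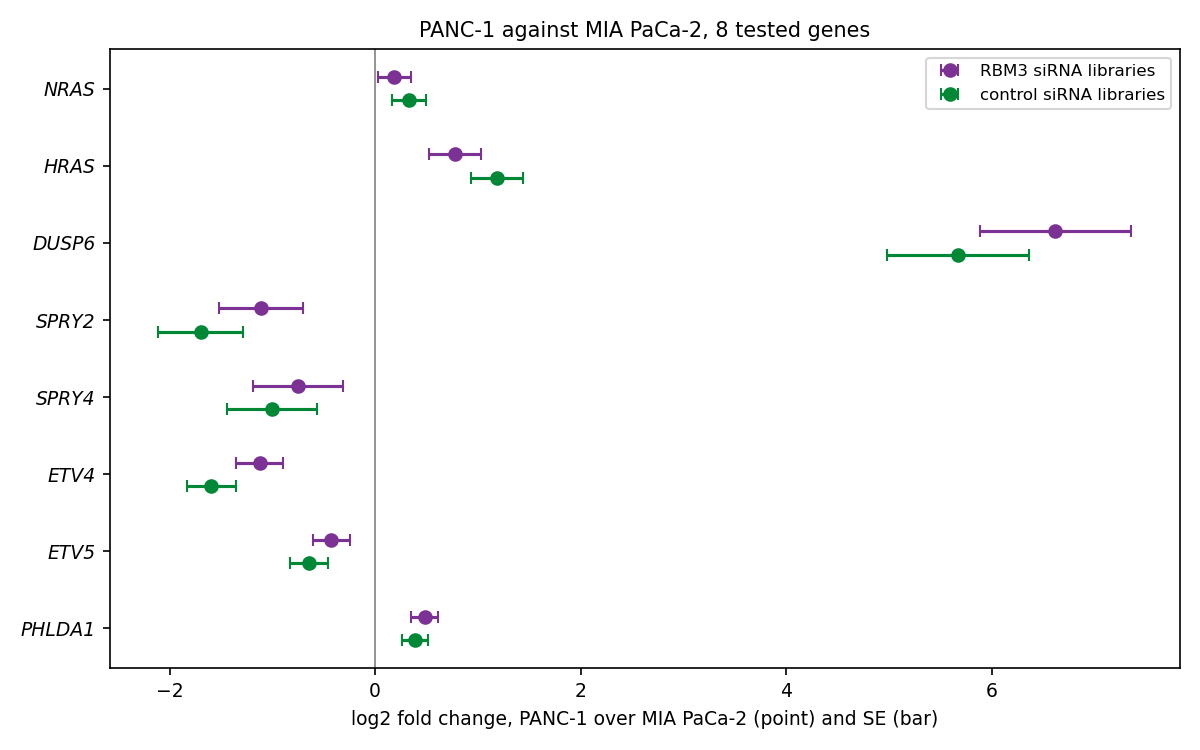
Log2 fold change of PANC-1 over MIA PaCa-2 (points) with its SE (bars) for the 8 tested genes, under RBM3 siRNA and under control siRNA. DUSP6 lay at 6.62 and 5.67 and ETV4 at -1.12 and -1.59, and the genes fell on both sides of 0.

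The mean of log2(CPM + 1) over the 7 ERK-responsive genes gives a description of the set, with no test. It was 5.67, 6.27 and 6.32 in PANC-1 RBM3 siRNA libraries, against 6.14, 5.74 and 5.72 in PANC-1 control libraries. In MIA PaCa-2 it was 5.66, 5.74 and 5.79 under RBM3 siRNA, against 5.90, 5.70 and 5.80 under control siRNA. The ranges of the lines overlapped, although single genes of the set differed between the lines in opposite directions. DUSP6 weighs on this overlap, at 6.09 to 7.40 in PANC-1 libraries and 0.574 to 2.63 in MIA PaCa-2 libraries on the same scale. SPRY2, SPRY4, ETV4 and ETV5 had the higher medians in MIA PaCa-2, PHLDA1 had the higher median in PANC-1, and DUSP4 was near the floor in both. The overlap therefore does not show that the genes other than DUSP6 stood at similar levels in the lines.

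Against control siRNA, RBM3 siRNA changed none of the 8 tested genes past the threshold in PANC-1. This was also the background, since 0% of all genes passed edgeR there and 3 genes (0.00858%) passed DESeq2. With no filter on low counts edgeR called 230 of 35072 genes, and none of the 9. At an unadjusted p under 0.05, 1 of the 8 genes passed, NRAS, where 4.12% of all genes did. NRAS had a log2 fold change of 0.37 (SE 0.16, edgeR adjusted p = 0.9997). HRAS had -0.39 (SE 0.25, edgeR adjusted p = 0.9997). It was the 1 gene of 8 whose groups did not overlap, against 6.52% of all genes (2.77% with the siRNA group lower). The phosphatase gene DUSP6 had -0.11 (SE 0.55), SPRY2 0.47 (SE 0.40) and SPRY4 0.67 (SE 0.44). The edgeR adjusted p of all 3 was 0.9997. ETV4 had 0.14 (SE 0.23), ETV5 0.38 (SE 0.18) and PHLDA1 -0.035 (SE 0.13), with the same adjusted p. The SEs of DUSP6, SPRY2 and SPRY4 were the largest of the 8, so smaller differences in these genes were not detectable. Without PANC-1 RBM3 siRNA replicate 3, the log2 fold changes were 0.41 for NRAS, -0.29 for HRAS, -0.38 for DUSP6, 0.15 for SPRY2 and 0.59 for SPRY4. They were 0.025 for ETV4, 0.33 for ETV5 and -0.044 for PHLDA1, and none passed. The median log2 fold change of the 8 genes was 0.26, against 0.032 over all genes.

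In MIA PaCa-2, RBM3 siRNA likewise changed none of the 8 past the threshold, where 2 genes of all tested (0.0112%) passed edgeR and 0.159% passed DESeq2. NRAS had a log2 fold change of 0.51 (SE 0.16, edgeR adjusted p = 1) and was the 1 gene of 8 at an unadjusted p under 0.05, where 2.94% of all genes were. NRAS averaged 150.3 ± 17.3 CPM under RBM3 siRNA and 105 ± 7.45 CPM under control siRNA (SD, n = 3 each). SPRY4 had 0.41 (SE 0.44, edgeR adjusted p = 1). NRAS and SPRY4 were the 2 genes whose groups did not overlap, both higher under RBM3 siRNA, where 8.04% of all genes did not overlap (4.41% with the siRNA group higher). HRAS had 0.020 (SE 0.25), SPRY2 -0.11 (SE 0.40) and ETV4 -0.33 (SE 0.23), and the edgeR adjusted p of all 3 was 1. ETV5 had 0.16 (SE 0.18) and PHLDA1 -0.13 (SE 0.13), with the same adjusted p. DUSP6 had -1.07 (SE 0.66, edgeR adjusted p = 1), a value that rested on MIA PaCa-2 control replicate 1 and was 0.53 without it. The median log2 fold change of the 8 was -0.044, against -0.0039 over all genes. As these are bulk samples, fewer cells that express a gene and less of its RNA per cell cannot be told apart.

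The test of whether the response differed between the lines also called none of the 8, nor any of all genes tested (0%), with 0 of the 8 and 2.98% of all genes at an unadjusted p under 0.05. DESeq2 called 3 genes (0.00858%) and none of these 8, and edgeR with no filter on low counts called 107 of 35072 genes and none of the 9. The difference of log2 fold changes, PANC-1 minus MIA PaCa-2, was 0.95 for DUSP6 (SE 0.86), 0.58 for SPRY2 (SE 0.57) and 0.47 for ETV4 (SE 0.32), and the edgeR adjusted p of all 3 was 0.9999. It was -0.41 for HRAS (SE 0.35), -0.14 for NRAS (SE 0.23), 0.25 for SPRY4 (SE 0.62), 0.22 for ETV5 (SE 0.26) and 0.091 for PHLDA1 (SE 0.18), with the same adjusted p. Without PANC-1 RBM3 siRNA replicate 3 it was 0.73 for DUSP6, 0.26 for SPRY2, 0.35 for ETV4 and -0.31 for HRAS, and -0.10 for NRAS, 0.18 for SPRY4, 0.17 for ETV5 and 0.085 for PHLDA1. Without MIA PaCa-2 control replicate 1, the value for DUSP6 was -0.65. At these SEs a difference between the lines in how these genes responded was not detectable, and its absence was not shown.

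**Figure D4:**
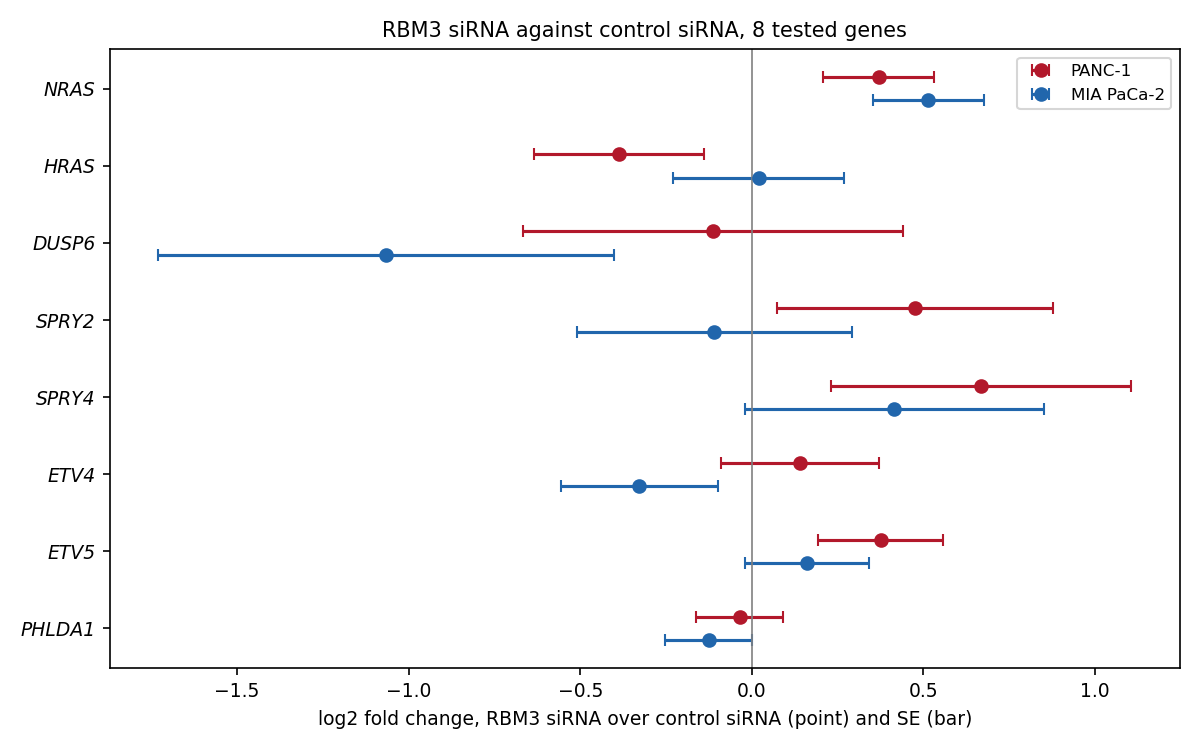
Log2 fold change of RBM3 siRNA over control siRNA (points) with its SE (bars) for the 8 tested genes in PANC-1 and in MIA PaCa-2. NRAS lay at 0.37 and 0.51 and PHLDA1 at -0.035 and -0.13, and no gene passed the adjusted threshold in either line.

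Within PANC-1, the feedback genes varied between libraries in a way that cut across the siRNA groups. The highest PANC-1 library held 4.34 times the SPRY4 level of the lowest, for SPRY2 3.36 times and for DUSP6 2.502 times. The other 5 tested genes ranged by 1.14 to 1.79 times. In MIA PaCa-2, SPRY4 ranged by 1.74 times and SPRY2 by 1.35 times, while DUSP6, at its low level, ranged by 10.6 times. SPRY2 and SPRY4 were both high in RBM3 siRNA replicates 2 and 3 and in control replicate 1 of PANC-1, and both were low in RBM3 siRNA replicate 1 and in control replicates 2 and 4. DUSP6 did not follow this split, being highest in control replicate 2 at 168 CPM and lowest in RBM3 siRNA replicate 1 at 67.0 CPM. Without RBM3 siRNA replicate 3, the ranges in PANC-1 were 4.34 times for SPRY4, 2.87 times for SPRY2 and 2.502 times for DUSP6.

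**Figure D5:**
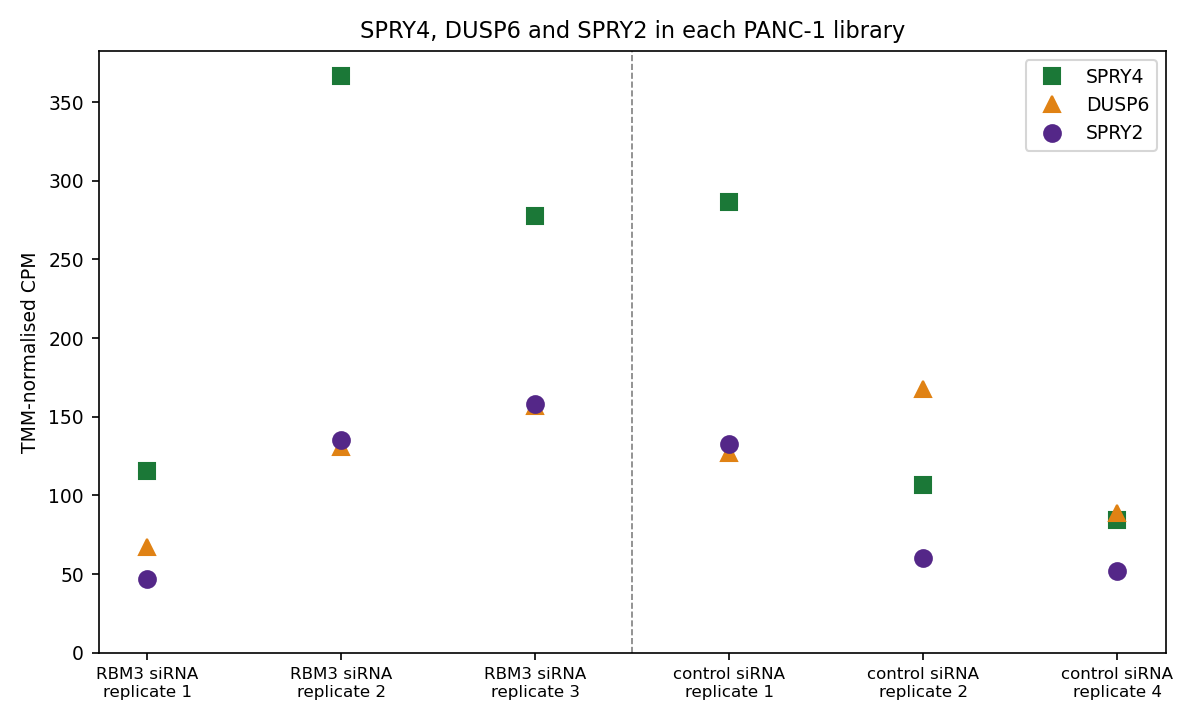
TMM-normalised CPM of SPRY4, DUSP6 and SPRY2 in each of the 6 PANC-1 libraries, RBM3 siRNA on the left and control siRNA on the right of the dashed line. SPRY4 reached 367 and 278 CPM in RBM3 siRNA replicates 2 and 3 and 286 CPM in control replicate 1, and lay at 115 CPM or less in the other 3 libraries.

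Across the 12 libraries, with the mean of each line subtracted, the genes nearest to DUSP6 among 10078 genes at a mean of at least 10 CPM were CDC6, MAP3K5, MCM10, FAM111B and HOTAIRM1. Their root mean square distances from DUSP6 in log2(CPM + 1) were 0.337, 0.338, 0.348, 0.349 and 0.355. The other genes of the set were much farther down, with PHLDA1 at rank 1898, SPRY2 at 5223 and SPRY4 at 9012. A second ranking, chosen after the values were seen, started from SPRY4. GPAT3 (0.236), SMURF2 (0.244), HIVEP1 (0.253), MCL1 (0.255) and GCLM (0.266) were nearest to it, with SPRY2 at rank 18 (0.319), NRAS at 341 and DUSP6 at 8085. The ranking from SPRY4 was not repeated with any library left out. SPRY4 and SPRY2 were both high in PANC-1 RBM3 siRNA replicate 3, and the part of that library in this ranking was not tested. The distances are a description, and the ranking from DUSP6 leaned on MIA PaCa-2 control replicate 1, the library with 218 DUSP6 counts. Each of the 5 nearest genes was highest there among the MIA PaCa-2 libraries, with CDC6 at 83.7 CPM and HOTAIRM1 at 4.26 CPM. Without that library, a setting chosen after the values were seen, 0 of the 5 stayed among the 5 nearest, with MAP3K5 at rank 15, CDC6 at 22, MCM10 at 136, HOTAIRM1 at 256 and FAM111B at 257. Without PANC-1 RBM3 siRNA replicate 3, 2 of the 5 stayed, FAM111B and MAP3K5.

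Around these genes, 8 lists of RAS and ERK pathway genes held 75 members, of which 73 were tested. RBM3 siRNA changed none of the 73 past edgeR's threshold in PANC-1 or in MIA PaCa-2, with 2 and 3 genes at an unadjusted p under 0.05, where 4.12% and 2.94% of all genes were. These counts lie near the background. In PANC-1 the log2 fold changes of all 7 tested RAS GTPase-activating proteins and of all 5 other Sprouty and SPRED genes were positive, with medians of 0.16 and 0.26, against 0.032 over all genes, and none passed. Over all 8 lists, 47 of the 73 were positive in PANC-1. In MIA PaCa-2, 4 of the 7 and 2 of the 5 were positive. Each of the other lists held both signs in PANC-1. The share of positive values over all genes was not computed, and these list values were not repeated without PANC-1 RBM3 siRNA replicate 3. The genes of a list were measured in the same libraries, so their signs are not independent. The 2 genes in PANC-1 at an unadjusted p under 0.05 were DUSP16 and EPHA4. DUSP16, another MAP kinase phosphatase gene, had a log2 fold change of 0.54. The receptor gene EPHA4 had 4.49 (SE 1.25, edgeR adjusted p = 0.9997). EPHA4 stood at 1.12, 1.92 and 67.6 CPM under RBM3 siRNA, against 1.37, 0.485 and 1.15 CPM under control siRNA. Its high value was in the library that stood apart, and MIA PaCa-2 libraries held EPHA4 at 117 to 198 CPM. The 3 genes in MIA PaCa-2 included the adaptor gene SHC1 (log2 fold change -0.34) and the Sprouty gene SPRY3. SPRY3 stood at 0.150, 0.178 and 0.175 CPM under RBM3 siRNA, against 0.618, 0.589 and 0.441 CPM under control siRNA, a log2 fold change of -1.70 (SE 0.45, edgeR adjusted p = 0.952) at 3 to 26 counts a library.

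Between the lines under RBM3 siRNA, 19 of the 73 were higher in PANC-1, 12 lower and 42 did not pass, against the 43.6% of all genes that passed. PANC-1 RBM3 siRNA replicate 3, the library that stood apart, is part of the list results under RBM3 siRNA, and its part in them was not tested. Under control siRNA, 21 were higher, 18 lower and 34 did not pass, against the 50.8% of all genes that passed. Of 8 RAS relatives, 2 were higher and 2 lower under control siRNA, with RAP1B at a log2 fold change of 1.91 (edgeR adjusted p = 4.23e-06) and RALB at -1.74 (adjusted p = 0.000267). Of 10 RAF, MEK and ERK kinases and scaffolds, 2 were higher and 4 lower. The MEK genes went opposite ways, MAP2K1 at 1.19 (edgeR adjusted p = 0.000181) and MAP2K2 at -1.89 (adjusted p = 0.000509). Of 9 tested adaptors and exchange factors, 3 were higher and 2 lower, among the lower the exchange factor gene SOS2 at -0.75 and the docking protein gene GAB1 at -2.39. Of 7 tested RAS GTPase-activating proteins, which switch RAS off, 2 were higher, among them RASAL2 at 3.72, and 2 lower, among them DAB2IP at -0.81. Of 8 other MAP kinase phosphatases, 3 were higher, among them DUSP5 at 2.73 (edgeR adjusted p = 0.00323), and 2 lower, among them DUSP16 at -1.35. Of 5 other Sprouty and SPRED genes, 2 were higher, among them SPRY3 at 2.00, and 1 was lower, SPRY1 at -1.29 (edgeR adjusted p = 0.000151). SPRY1 thus lay on the same side as SPRY2. Of 18 other ERK-responsive genes, 5 were higher, among them the early response gene IER3 at 3.37 (edgeR adjusted p = 2.58e-07), and 2 were lower, among them EPHA4 at -7.42 (adjusted p = 0.000884). Of 8 RAS processing enzymes, 2 were higher and 3 lower, among the lower FNTA, the farnesyltransferase alpha subunit gene, at -1.97 and GOLGA7, which takes part in RAS palmitoylation, at -1.76. Under RBM3 siRNA the GTPase-activating proteins had 2 members higher in PANC-1 and 0 lower, the processing enzymes had 0 higher and 2 lower, and each of the other 6 lists had calls in both directions.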

How the data were processed

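The deposited table gives raw read counts per Ensembl gene for 12 paired-end libraries (TruSeq kit, 75 bp, per the labels' protocols). Reads had been processed on hg19/GRCh37 with STAR 2.5.2a, Subread, featureCounts and Picard, per the submitters' processing notes. The strand setting and the annotation release were not given in the sources used here. The label of the deposited counts names marked duplicates, and whether marked reads were counted was not given. Duplicates could inflate abundant transcripts. Of 63677 gene rows, 52181 matched a symbol. Exon lengths and overlaps came from GENCODE on GRCh38, so no coordinates were taken from it, and promoter windows came from RefSeq GRCh38.p14.

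The counts were tested with edgeR 4.0.16 (R 4.3.3): filterByExpr (17862 genes), TMM, 1 model of 4 group means (8 residual degrees of freedom), two-sided quasi-likelihood F-tests and Benjamini-Hochberg adjustment over all genes, called under 0.05. Each SE was computed as the size of the log2 fold change over the square root of its F. CPM is the count over the scaled library size. Steps were tested on simulated data. Alternatives were DESeq2 1.42.0, limma-voom (limma 3.58.1), other scalings and filters, each line alone, a replicate block and leaving out each library. Floors of 3 counts cover counting error only. No pair of replicates matched within sampling noise (chi-square per degree of freedom of 10.6 to 164).

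The 9 genes, the pathway lists and the marker lists were chosen with earlier results of these data known. Named were all 9 genes, RBM3, the 2 genes of each pathway list with the smallest p in a comparison, of which those past an unadjusted 0.05 under RBM3 siRNA and those between the lines under control siRNA are printed, and the 5 genes nearest to DUSP6. Some genes of these lists are not reported here.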

Additional observations from a re-analysis of the deposited data

How the results depend on the processing

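Of the alternatives run, 895 values kept their direction and side of the threshold, 34 lost a call, 9 gained one, 14 reversed and 2 moved by more than the replicate spread. All reversed values were uncalled. With 1 library left out, the log2 fold change under RBM3 siRNA in PANC-1 ran from -0.38 to 0.18 for DUSP6, -0.053 to 0.34 for ETV4 and -0.077 to 0.019 for PHLDA1. In MIA PaCa-2 it ran from -0.24 to 0.28 for HRAS and -1.45 to 0.53 for DUSP6. The difference between the lines ran from -0.24 to 0.013 for NRAS, -0.65 to 1.33 for DUSP6, -0.11 to 0.99 for SPRY4 and -0.065 to 0.66 for RBM3. The cause was not tested.

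The number called between the lines, of the 8 or 9 genes tested, ran from 3 to 5 under RBM3 siRNA and from 5 to 7 under control siRNA. Under RBM3 siRNA it was 3 without PANC-1 RBM3 siRNA replicate 1, MIA PaCa-2 RBM3 siRNA replicate 1 or MIA PaCa-2 RBM3 siRNA replicate 2. Calls over all genes also fell there, to 5463 of 18375, 6307 of 18294 and 5761 of 18309, against 7781 of 17862 in the main fit. DESeq2 called 5 under RBM3 siRNA and 6 under control siRNA, where 8285 and 9551 of 22734 genes passed. With limma-voom 5 and 7 were called, where 8368 and 8953 of 17862 genes were. Over all genes, edgeR called 0 under RBM3 siRNA in PANC-1, 2 in MIA PaCa-2 and 0 for the difference of responses, against 230, 3 and 107 with no filter on low counts and 3, 20 and 3 by DESeq2. A pseudocount of 0.5 CPM put the mean level of the 7 ERK-responsive genes in MIA PaCa-2 at 5.55 under RBM3 siRNA and at 5.65 under control siRNA. RBM3 in PANC-1 passed under DESeq2 (adjusted p = 4.59e-05), with no filter on low counts (9.03e-06) and without PANC-1 RBM3 siRNA replicate 2 (0.00515).

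The replicate numbers are shared only in part between groups, and same-numbered libraries did not deviate together (correlations of -0.478 to 0.148), so the numbers were not taken as pairs. With a replicate block (4 residual degrees of freedom), 4 of the 8 genes passed between the lines under RBM3 siRNA and 5 under control siRNA. Of all 17862 tested genes, 7640 and 8652 passed. The block turned HRAS in MIA PaCa-2 to -0.25. Under it PHLDA1 was lost in both line comparisons (edgeR adjusted p = 0.0720 under RBM3 siRNA and 0.0547 under control siRNA), SPRY2 was lost under RBM3 siRNA (0.0632) and ETV5 was gained there (0.0457). Depth limits DUSP4 in both lines and DUSP6 in MIA PaCa-2, where 13 counts was the lowest. With 3 libraries a group, the precision is set by the spread between libraries.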

Other observations

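Other genes of the pathway lists also varied between PANC-1 libraries across the siRNA groups, and these were chosen after their values were seen. RASAL2, which encodes a RAS GTPase-activating protein, stood at 52.7, 198 and 21.6 CPM in PANC-1 under RBM3 siRNA, against 139, 56.7 and 48.6 CPM under control siRNA. The MAP kinase phosphatase gene DUSP5 stood at 55.0, 169.7 and 46.7 CPM under RBM3 siRNA, against 168, 52.4 and 54.9 CPM under control siRNA. FOSL1, which encodes an AP-1 subunit, stood at 294, 584 and 212 CPM under RBM3 siRNA, against 708, 361 and 426 CPM under control siRNA. All 3 were highest in RBM3 siRNA replicate 2 and control replicate 1, as SPRY4 was, but not in RBM3 siRNA replicate 3, where SPRY2 and SPRY4 were high. MIA PaCa-2 held them at 2.33 to 9.42 CPM for RASAL2, 7.37 to 21.2 CPM for DUSP5 and 80.9 to 145 CPM for FOSL1, each below the lowest PANC-1 library.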
